A study of Bos taurus with 3 samples.

Results

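Integrins are the cell-surface receptors that tie a fibroblast to its matrix, and laminins and nidogens are matrix proteins that basement membranes are built from. The 36 genes described here are rows, of 31903 genes in the count table, whose symbols name an integrin α chain (16 rows), an integrin β chain (8 rows), a laminin α, β or γ chain (5, 3 and 2 rows) or a nidogen (2 rows). RNA was sequenced from BFF116 cells, bovine fetal fibroblasts kept in culture as nucleus donors for cloning, in which the nucleus of a somatic cell is placed in an enucleated egg. There was 1 group of 3 replicates of 70000 cells each, all deprived of serum for 48 h before harvest, with no unstarved or otherwise treated group. The labels name no separate animals or cultures behind the replicates, so part of their spread may be technical.

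An integrin works as a pair of 1 α and 1 β chain that crosses the membrane, and the pair decides which ligand is bound: some pairs hold collagens, others laminins, and others the RGD motif (arginine, glycine, aspartate) of fibronectin and vitronectin. A laminin is a cross-shaped trimer of 1 α, 1 β and 1 γ chain, wound together before secretion, whose α chain carries the domains that receptors bind. Nidogens bind the laminin γ1 chain and link laminin to collagen IV and perlecan. Trimers are named by their chain numbers, so laminin-411 holds α4, β1 and γ1. Cells can only assemble a pair or trimer for which they make every chain, and that is the question asked of the RNA below, although RNA does not show which assemblies reach the cell surface or the matrix.

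Gene counts summed to 8608350, 4842331 and 7122651 in replicates 1 to 3. Levels are CPM (counts scaled to library size with TMM factors), given in replicate order and then as mean ± SD over the 3 replicates (n = 3 throughout). CPM was not corrected for transcript length, which the sources used here do not give. Levels of single genes are therefore compared between libraries and not with other genes. Medians, sums, thresholds and ranks over sets of genes are in CPM and carry differences in transcript length. The word measured stands for a gene that reached 1 CPM in each of the libraries. A gene with 0 reads may still have had up to 3, which is 0.356, 0.605 and 0.422 CPM in replicates 1 to 3. All 10 fibroblast markers checked were measured. Of the markers of other cells, 0 of 9 epithelial, 0 of 5 skeletal muscle and 2 of 6 endothelial genes were measured. So were 2 of 8 leukocyte, 1 of 5 platelet and 2 of 5 neural and Schwann cell genes. The endothelial and leukocyte genes measured were TEK (5.93 ± 2.54 CPM), PECAM1 (2.65 ± 1.65), LAPTM5 (5.20 ± 2.20) and CD68 (3.42 ± 1.45). The platelet gene was GP9 (9.91 ± 5.64), and the neural and Schwann cell genes were NCAM1 (60.6 ± 15.4) and S100B (4.31 ± 2.97). EPCAM, KDR, PTPRC, PPBP, MYOD1 and SOX10 were at 0 reads.

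Integrin, laminin and nidogen RNA together made up a similar part of each library, while sums by kind varied more for some kinds. Of the 36 genes 24 were measured, where 34.6% of all genes were. The median of the genes' mean CPM was 24.9 for the 36 and 0.134 for all genes. At 100 CPM or more in every library stood 10 of the 36, where 4.33% of all genes did. Another 7 had reads but fell below 1 CPM in some library, and 5 had 0 reads in every library, where 43.5% of all genes had none. The 36 genes summed to 5357, 5329.7 and 5492 CPM, or 0.539% ± 0.0134 of gene counts. By kind, the sums were 810.2 ± 18.0 CPM for integrin α, 1904 ± 105 for integrin β, 263 ± 28.7 for laminin α, 438 ± 55.8 for laminin β, 585 ± 9.99 for laminin γ and 1392 ± 149 for the nidogens.

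Of the 8 integrin β chains 4 were measured, and 3 of these stood at 100 CPM or more in every library. ITGB1, the β1 chain that most α chains can join, stood at 978, 1018 and 897 CPM (964 ± 61.7). ITGB3, which pairs with αV and with the platelet chain αIIb, stood at 747, 790.3 and 681 CPM (739 ± 55.2). Both genes differed little between libraries, by 1.14-fold and 1.16-fold from lowest to highest. ITGB5, whose product binds vitronectin together with αV, was at 145, 205 and 233 CPM (194 ± 45.0), with replicate 1 the lowest. ITGB8, which with αV binds and activates latent TGF-β, was at 5.23, 7.05 and 3.10 CPM (5.13 ± 1.98) from 44, 35 and 22 reads. ITGB1, ITGB3 and ITGB8 were each highest in replicate 2 and lowest in replicate 3, while ITGB5 was highest in replicate 3 and lowest in replicate 1.

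The other 4 β chains are best known from epithelia and blood cells. ITGB4, the hemidesmosome chain of epithelia, had 2, 1 and 4 reads, and ITGB7, a chain of lymphocyte homing receptors, had 3, 2 and 14. ITGB2, the shared β chain of leukocyte integrins, and ITGB6, an epithelial partner of αV, had 0 reads in every library. The markers of the same cell types were also low: the 9 epithelial markers summed to 2.14 to 4.84 CPM per library, and the 8 leukocyte markers to 6.05 to 15.8 CPM. Bulk RNA cannot tell few cells of a type from little RNA per cell.

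**Figure D1:**
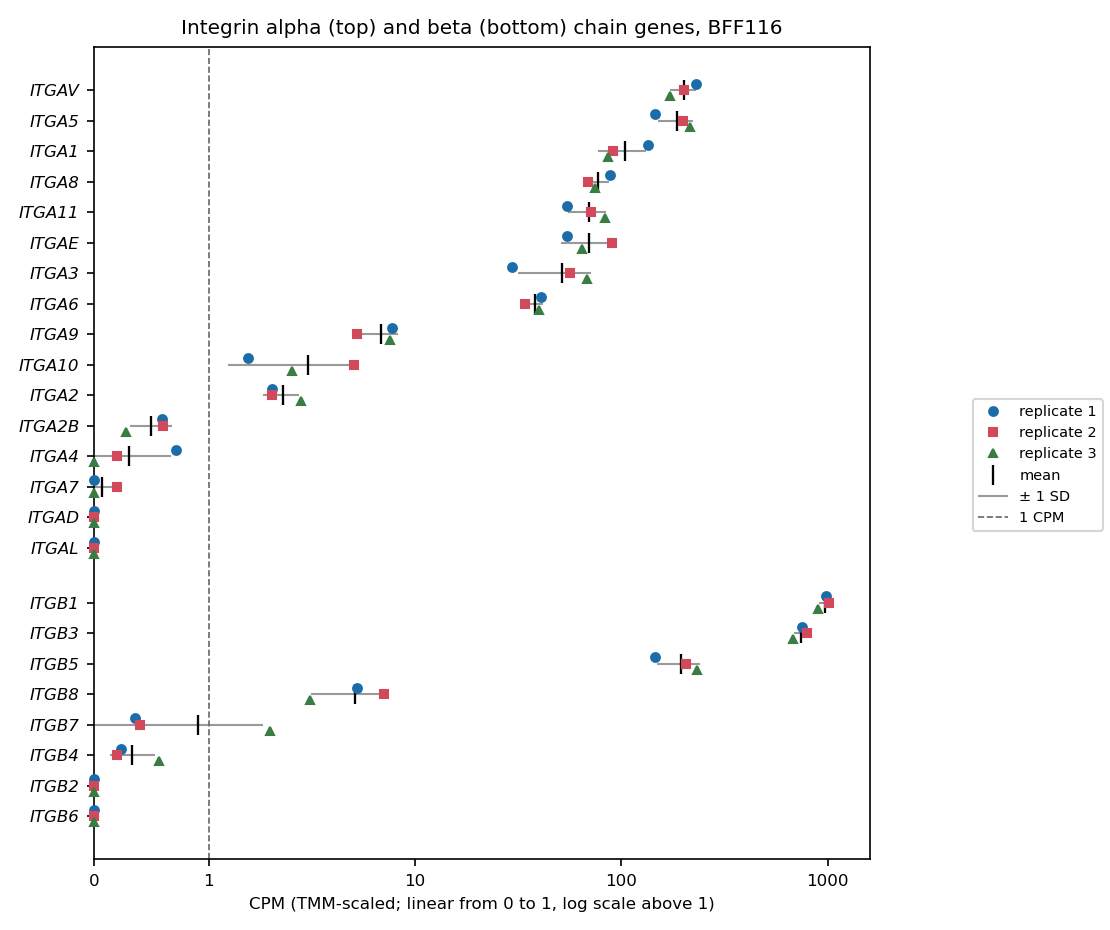
Level of each integrin chain gene in CPM (x axis, linear from 0 to 1 and logarithmic above) in 3 libraries (coloured points), with the mean (black tick) and 1 SD to either side (grey line). ITGB1 and ITGB3 lie between 681 and 1018 CPM in every library, while the genes left of the dashed line at 1 CPM in some library have at most 14 reads in any library.

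Among the α chains, those that read the RGD motif had 3 of 4 members measured and a summed level that hardly moved between libraries, at 464, 470.1 and 460.4 CPM (465 ± 4.89). ITGAV, the αV chain that joins β1, β3, β5, β6 or β8, was at 230.1, 201 and 172 CPM (201 ± 29.1). ITGA5, the chain of the main fibronectin receptor, ran the other way over the libraries at 146, 199.7 and 214 CPM (187 ± 35.8). The summed level was therefore steadier than either gene. Per 100 reads of ITGAV there were 63.5, 99.2 and 125 reads of ITGA5, a 1.96-fold difference between libraries. Transcript length cancels out of such a difference. Unequal amplification of genes between libraries does not, and its part was not tested. Without replicate 1 the difference was 1.26-fold. Here and in the ratios below, replicate 1 lay at an end of the range wherever it was left out. Leaving it out could therefore only lower the difference. ITGA8, whose product binds fibronectin and nephronectin, was at 87.7, 68.5 and 74.3 CPM (76.8 ± 9.82). ITGA2B, the platelet αIIb chain, had 5, 3 and 2 reads and was not measured.

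All 4 collagen-binding α chains were measured, with a summed level of 193, 169 and 175 CPM (179 ± 12.5). ITGA1, which prefers the collagen IV of basement membranes, was at 135, 91.1 and 86.3 CPM (104 ± 26.8), highest in replicate 1. ITGA11, a fibroblast receptor for fibrillar collagen, was at 54.5, 70.9 and 83.3 CPM (69.6 ± 14.4), lowest in replicate 1. Their reads thus shifted against each other, with 247, 128 and 104 reads of ITGA1 per 100 reads of ITGA11, a 2.39-fold difference that was 1.24-fold without replicate 1. The remaining collagen receptors rested on few reads. ITGA10, best known from cartilage, had 13, 25 and 18 reads (3.04 ± 1.80 CPM), and ITGA2, a receptor of platelets and epithelia as well as fibroblasts, had 17, 10 and 20 reads (2.28 ± 0.460 CPM).

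Of the laminin-binding α chains 2 of 3 were measured. ITGA3, whose product binds laminin-511, was at 29.5, 56.4 and 68.1 CPM (51.3 ± 19.8). Replicate 1 stood apart for this gene, 2.31-fold below replicate 3. ITGA6, which joins β1 or β4, was steadier at 40.7, 34.3 and 39.8 CPM (38.3 ± 3.51). Per 100 reads of ITGA6 there were 72.3, 165 and 171 reads of ITGA3, a 2.37-fold difference that was 1.04-fold without replicate 1. ITGA7, the laminin receptor chain of skeletal muscle, had 1 read in all libraries together, beside summed levels of 0.713 to 2.22 CPM for the 5 skeletal muscle markers, of which MYOD1, PAX7 and DES were at 0 reads.

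The other α chains belong to smaller classes. ITGA9, whose product binds tenascin-C and VCAM1, was measured at 7.72, 5.24 and 7.60 CPM (6.85 ± 1.40) from 65, 26 and 54 reads, while the related ITGA4 had 6, 1 and 0 reads. ITGAL and ITGAD, leukocyte chains that join β2, were at 0 reads. ITGAE, the αE chain of lymphocytes in epithelia, was at 54.3, 89.9 and 64.0 CPM (69.4 ± 18.4), while its known partner ITGB7 was below 1 CPM in 2 libraries. Of the 8 leukocyte markers 2 were measured, LAPTM5 with 34, 19 and 55 reads and CD68 with 32, 9 and 33, FCER1G had 26, 1 and 14 reads, CSF1R and CD3E had at most 10 in any library, and PTPRC, CD14 and SPI1 were at 0. The part of such cells in the ITGAE level was not tested. In the RefSeq table of assembly ARS-UCD2.0, ITGAE overlaps HASPIN, a mitotic kinase gene listed here as GSG2 at 14.1, 12.7 and 9.99 CPM. ITGA1 overlaps PELO (33.2 ± 8.06 CPM) and ITGA2 overlaps MOCS2 (27.5 ± 3.18 CPM) in the same way. The strand setting of the counts is not given, so the levels of ITGAE, ITGA1 and ITGA2 are uncertain to the extent that reads of these partners were assigned to them, which was not tested.

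Receptor pairs were counted as possible at the RNA level where both chains were measured. Textbooks give 24 pairs for mammals, and both chains had a row for 22 of them. Of these, 13 were possible. The β1 chain could join 10 of its 12 known partners, namely α1, α2, α3, α5, α6, α8, α9, α10, α11 and αV, and lacked α4 and α7. The αV chain could join 4 of its 5 known partners, β1, β3, β5 and β8, and lacked β6. The possible set thus held the fibronectin receptor α5β1, all 4 collagen receptors, the laminin receptors α3β1 and α6β1, the tenascin-C receptor α9β1, and the vitronectin and TGF-β binding αV pairs.

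The 9 pairs that were not possible lacked either 1 chain or both. In 6 of them 1 chain was measured and the other not: α4β1, α7β1, αIIbβ3, α6β4, αVβ6 and αEβ7. The β3 chain therefore had αV as its 1 measured partner, the laminin-binding α6 had β1 alone, and αE had no measured partner. Neither chain was measured for α4β7, αLβ2 and αDβ2. The pairs of β2 with αM and αX were not analysed here, and ITGB2 itself was at 0 reads. Requiring 5 CPM in place of 1 left 10 possible pairs, since ITGA2, ITGA10 and ITGB8 no longer passed.

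**Figure D2:**
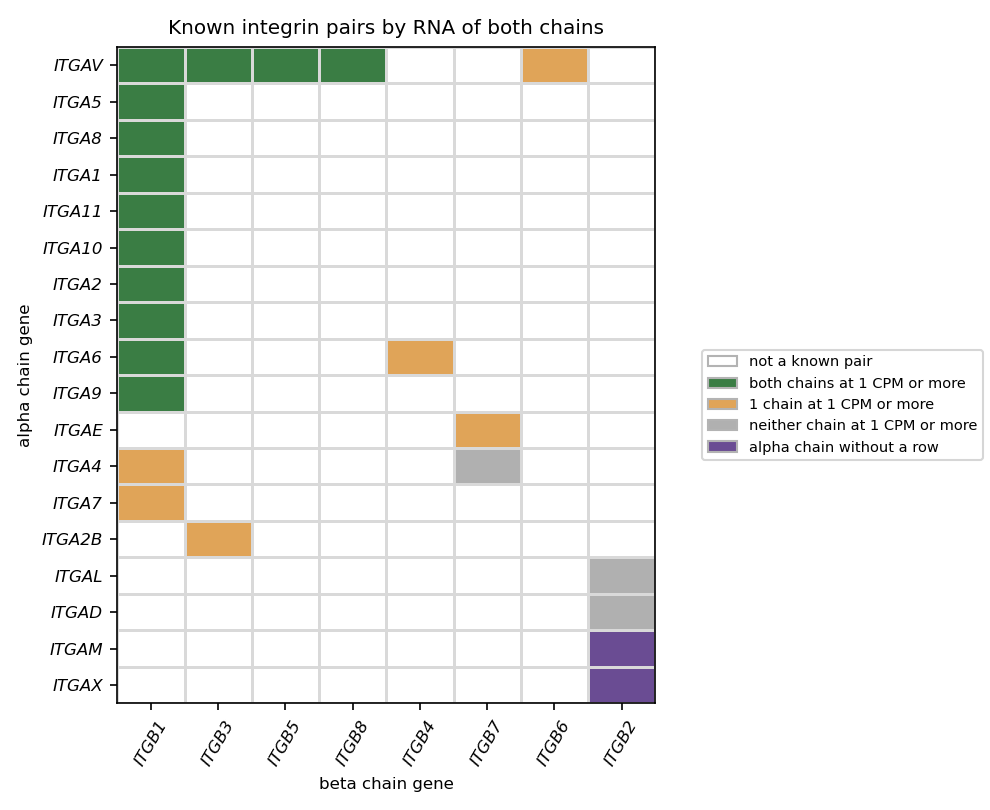
Known integrin pairs by α chain gene (rows) and β chain gene (columns), coloured by whether both, 1 or neither of the chains reached 1 CPM in every library. The 13 green cells lie in the ITGB1 column and the ITGAV row.

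Laminin α chains set the receptor binding of a trimer, and 4 of 5 were measured. LAMA4, the α4 chain of vascular and mesenchymal tissue, was at 199.6, 156 and 208 CPM (188 ± 27.9). LAMA2, the α2 chain of muscle and nerve basement membrane, was at 54.4, 50.4 and 55.7 CPM (53.5 ± 2.78). The libraries lay close together for LAMA2, and its reads per 100 of LAMA4 were 27.3, 32.3 and 26.7. LAMA3, the α3 chain of epithelial anchorage, was at 10.9, 12.9 and 10.98 CPM (11.6 ± 1.12), and the epithelial markers KRT8, KRT18, KRT19, CDH1 and EPCAM had at most 9 reads in any library. LAMA5, a chain of most adult basement membranes, was at 6.30, 11.3 and 11.3 CPM (9.61 ± 2.87), lowest in replicate 1. LAMA1, a chain of the early embryo, had 1, 1 and 0 reads.

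The γ1 chain, which 10 of the 13 trimers considered hold, and the β1 chain, which 6 hold, were steady. LAMC1 was at 579, 597 and 580.1 CPM (585 ± 9.99), with the smallest spread of the 24 measured genes, a coefficient of variation of 1.71%. The median over all measured genes, whose median level was 20.5 CPM, was 23.1%. The spread that the test below fitted for the level of LAMC1 was 20.8%. LAMB1 was at 364, 372 and 441 CPM (392 ± 42.6). Per 100 reads of LAMC1 there were 62.8, 62.3 and 76.1 reads of LAMB1. The proportion of LAMB1 to LAMC1 thus differed by 1.22-fold between libraries. Reads of LAMA4, another partner chain, were 34.5, 26.2 and 35.9 per 100 of LAMC1, a 1.37-fold difference.

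The alternative β chains moved more. LAMB2, the β2 chain of synapses and kidney filters, was at 19.7, 59.4 and 54.3 CPM (44.5 ± 21.6), so that replicate 1 was 3.01-fold below replicate 2. Reads of LAMB2 per 100 of LAMB1 were 5.42, 16.0 and 12.3, a 2.95-fold difference that was 1.30-fold without replicate 1. LAMB3, the β3 chain of epithelia, had 14, 11 and 5 reads and passed 1 CPM in replicates 1 and 2 but not in replicate 3, so that without replicate 3 it was measured. The 9 epithelial markers, with EPCAM and GRHL2 at 0, summed to 2.14, 4.84 and 4.64 CPM in the same libraries, and their part in the LAMB3 values was not tested. LAMC3, the γ3 chain, was at 0 reads. Of the genes for the collagen receptors, ITGA1 and ITGA2 lie side by side in the RefSeq table, with 0 protein-coding genes between them.

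Both nidogens exceeded 100 CPM in every library. NID1 was at 697, 497 and 631 CPM (608 ± 102) and NID2 at 759, 725 and 867 CPM (784 ± 74.2). Replicate 2 was lowest for both. NID2 overlaps a gene listed as LOC613519, which was at 1.64 ± 0.407 CPM. Per 100 reads of NID1 there were 109, 146 and 137 reads of NID2, and 83.0, 120.1 and 91.9 reads of LAMC1, the chain they bind.

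**Figure D3:**
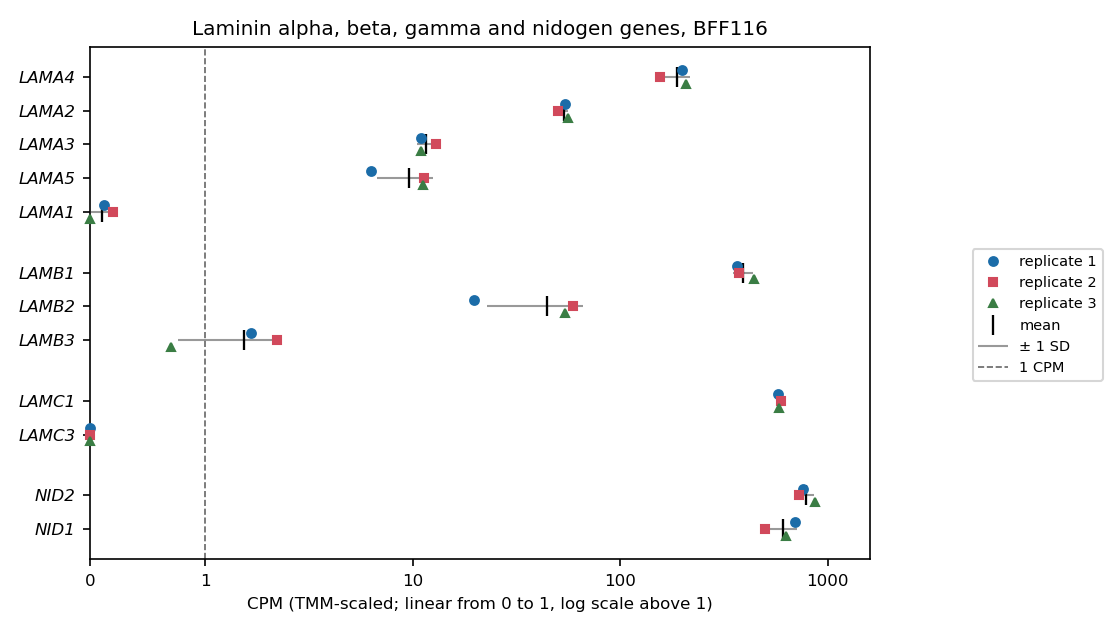
Level of each laminin and nidogen gene in CPM (x axis, linear from 0 to 1 and logarithmic above) in 3 libraries (coloured points), with the mean (black tick) and 1 SD to either side (grey line). LAMC1 points coincide at 579 to 597 CPM, while LAMB2 is lowest in replicate 1.

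Of 13 known trimers considered 8 were possible at the RNA level. LAMC1 was the γ chain of all 8: laminin-211, laminin-221, laminin-311, laminin-321, laminin-411, laminin-421, laminin-511 and laminin-521. Each of the measured α chains α2, α3, α4 and α5 could thus enter 2 trimers, 1 with β1 and 1 with β2. The 8 remained possible at a threshold of 5 CPM.

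The 5 trimers that were not possible each lacked 1 chain. Laminin-111 and laminin-121, the forms of the early embryo, lacked LAMA1. Laminin-213, laminin-423 and laminin-523 lacked LAMC3.

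**Figure D4:**
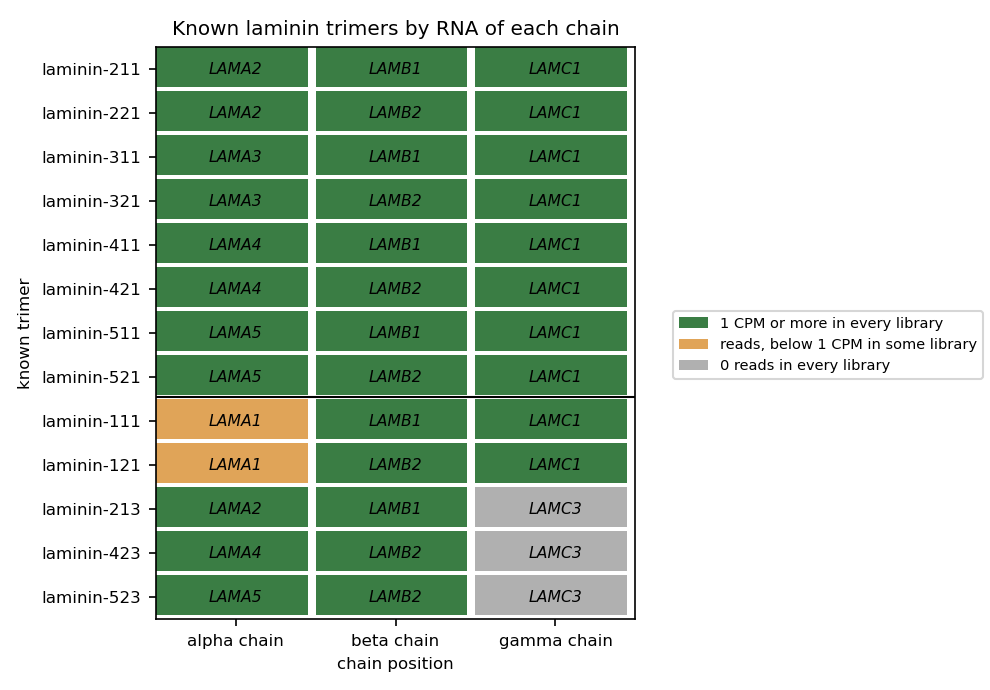
Known laminin trimers (rows) with the RNA status of their α, β and γ chain genes (columns), coloured by whether the gene reached 1 CPM in every library, had reads but fell below, or had 0 reads. The 8 trimers above the line have all chains at 1 CPM or more, and each of the 5 below it lacks 1 chain.

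No integrin, laminin or nidogen gene was called as spreading more between replicates than genes of like level. In a negative binomial test fitted with edgeR to 10434 genes that had at least 10 counts in each library, 24 integrin, laminin and nidogen genes entered and 0 were called at an adjusted p under 0.05, where 0.0192% of all genes tested were. At an unadjusted p under 0.05 there was 1, LAMB2, where 5.24% of all genes tested were. The edgeR adjusted p-value of LAMB2 was 0.768, and with dispersions from DESeq2 0 members were called as well. The test had few replicates, and a p that misses the threshold does not show equal levels. It measured each gene against a dispersion trend from these same 3 libraries. With 2 of 10434 genes called, 0 of 24 members carries little information. Of the 24 measured genes 4 differed 2-fold or more between the lowest and highest library, namely ITGA3, ITGA10, ITGB8 and LAMB2, where 26.7% of all measured genes did. The median coefficient of variation was 18.0% for the 24 genes and 23.1% for all measured genes. Their median levels differed, at 73.2 and 20.5 CPM. The spread that the test fitted for a gene's level was 34.9% for ITGA10 but 20.4% for ITGB1. The medians are therefore not compared at like levels.

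The libraries' deviations from each gene's mean are given as a description. Replicate 1 was the lowest library for 11 of the 24 genes, where it was lowest for 39.2% of all measured genes, and among these LAMB2, ITGA10, ITGA3 and LAMA5 deviated from their mean by -1.02, -0.81, -0.72 and -0.56 log2 units. Replicate 1 was the highest for 6, where it was highest for 39.5% of all measured genes, and ITGA1 and NID1 stood 0.40 and 0.21 log2 units above their means. Replicate 2 was the highest for 9 and the lowest for 8, where the shares of all measured genes were 23.8% and 26.1%. Replicate 3 was the highest for 9 and the lowest for 5, where they were 36.7% and 34.7%. LAMC1, ITGB1, ITGB3 and LAMA2 stayed within 0.12 log2 units of their means in every library.

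**Figure D5:**
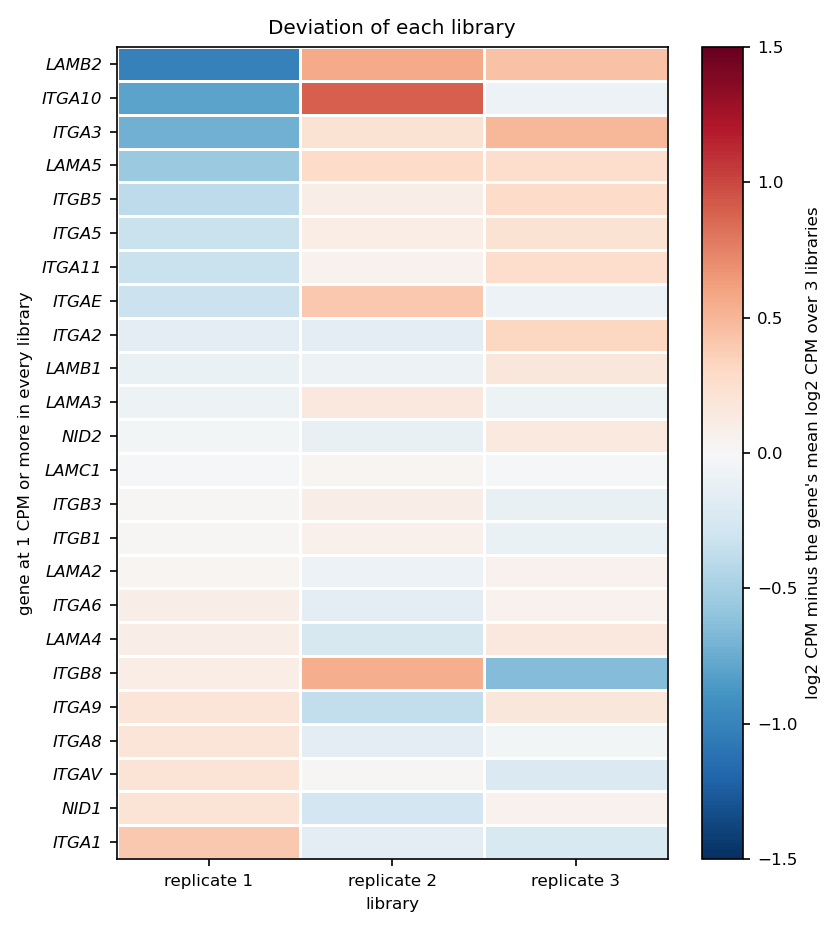
Deviation of each library's log2 CPM from the gene's own mean over 3 libraries (colour scale, log2 units) for the 24 measured genes, sorted by replicate 1. LAMB2 and ITGA10 at the top are lowest in replicate 1, and ITGA1 at the bottom is highest there.

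Most genes listed for the adhesion machinery of integrins were measured. The list also holds surface proteins such as CD9 and CD47, and ITGB1BP1, which restrains activation of the β1 chain. Of 38 adhesion machinery genes listed 35 had a row, and 33 of these were measured, or 94.3%, where 34.6% of all genes were. Their median was 87.1 CPM, where that of all genes was 0.134. All genes include 43.5% with 0 reads in every library, and the lists were chosen with earlier results known. Here and in the lists below the shares are therefore a description and do not show enrichment. DAB2, an endocytic adaptor of integrins, was at 1817 ± 222 CPM, FERMT2, the kindlin that activates β chains in mesenchymal cells, at 1468 ± 361, VCL, the vinculin that links adhesions to actin, at 1087 ± 124 and FLNA, the actin crosslinker filamin A, at 869 ± 216. TLN1, the talin that binds β chain tails, was at 278 ± 71.3 CPM, ILK, the integrin-linked kinase, at 165 ± 3.95 and PTK2, the focal adhesion kinase, at 76.9 ± 5.34. The 2 genes below 1 CPM were FERMT3 and PARVG, both known from blood cells, at 0 reads, as was ITGB2. Replicate 1 was the lowest library for 22 of the 33, where it was lowest for 39.2% of all measured genes.

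Ligands of integrins were among the measured genes. The list is not limited to the possible pairs and includes ICAM1, MADCAM1 and CDH1, known from pairs that were not possible. Of 24 ligand genes with a row 17 were measured, or 70.8%, where 34.6% of all genes were. Their median was 135 CPM. For α5β1, FN1 was at 11556 ± 178 CPM. For the TGF-β binding αV pairs, TGFB1 was at 4.96 ± 0.138 CPM and LTBP1, a latent TGF-β binding protein, at 51.7 ± 11.8. For the collagen receptors, COL3A1 was at 32239 ± 1761 CPM, COL1A2 at 26737 ± 2306 and COL1A1 at 19062 ± 3563. THBS1, the thrombospondin ligand of β3 and β1 pairs, was at 15509 ± 778 CPM, TNC, the tenascin-C that α9β1 binds, at 4465 ± 708, and FBN1, the fibrillin with an RGD motif, at 2262 ± 109. Vitronectin (VTN), the eponymous ligand of αV, was at 0 reads, as were MADCAM1, FGA and IBSP, while NPNT, the nephronectin that α8β1 binds, had 2, 0 and 0 reads. VCAM1 had 36, 24 and 5 reads, and CDH1, the ligand of αE, had 5, 4 and 6. Replicate 1 was the highest library for 10 of the 17 measured ligands, where it was highest for 39.5% of all measured genes, and the lowest for 5, where it was lowest for 39.2%.

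Laminin is joined in a basement membrane by other matrix proteins. Of 22 such genes with a row 15 were measured, or 68.2%, where 34.6% of all genes were. Their median was 7.23 CPM. The collagen IV chains COL4A1 and COL4A2 were at 99.4 ± 22.9 and 21.9 ± 12.4 CPM, and the other 4 of that family, COL4A3 to COL4A6, were below 1 CPM in some library. HSPG2, the perlecan that nidogen binds, was at 30.8 ± 12.0 CPM, and AGRN, the laminin-binding agrin, at 4.33 ± 2.20. The highest of the list by CPM were SPARC, a collagen-binding protein at 17923 ± 1626, the nidogen-binding fibulin FBLN2 at 620.1 ± 73.0, COL15A1 at 123 ± 12.7 and NTN4, a netrin that binds laminin γ chains, at 103 ± 37.4. Replicate 1 was the lowest library for 10 of the 15, where the share of all measured genes was the same 39.2%.

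Laminin can also be held by receptors other than integrins. Of 19 such genes with a row 17 were measured, or 89.5%, where 34.6% of all genes were. Their median was 26.9 CPM. DAG1, the dystroglycan that binds laminin α chains, was at 31.2 ± 3.93 CPM, and the enzymes that build its laminin-binding sugar were measured too, with LARGE at 26.9 ± 3.69, POMT2 at 14.9 ± 1.60 and POMT1 at 9.61 ± 1.19 CPM. UTRN, the utrophin that links dystroglycan to actin, was at 1164 ± 192 CPM, SGCE and SGCB, sarcoglycans of the same complex, at 242 ± 22.9 and 216 ± 17.1, and RPSA at 532 ± 48.0. RPSA is also a ribosomal protein gene with many processed copies, so its level is uncertain. BCAM, a receptor of laminin α5, was at 3.95 ± 2.47 CPM. The muscle sarcoglycan gene SGCA had 6, 2 and 9 reads, and MCAM, a receptor of laminin α4, was at 0. Replicate 1 was the lowest library for 11 of the 17, where it was lowest for 39.2% of all measured genes.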

How the data were processed

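Cells were lysed and cDNA was made and amplified from a single primer, then fragmented, and 500 ng per library was sequenced as single reads of 100 bases, per the labels' protocols. The authors deposited whole-number read counts per gene symbol, not normalized. TopHat2 2.0.10 and HTSeq 0.6.1 are named in the submitters' processing notes. The build, annotation and strand setting were not given in these sources. The 5 summary rows, which name no gene, entered neither library sizes nor tests. Of each library's total, reads in no gene were 59.2, 58.9 and 62.0% in replicates 1 to 3, and reads with several alignments 7.93, 7.52 and 7.99%.

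CPM was computed with edgeR 4.0.16 in R 4.3.3 with TMM factors of 0.978, 1.02 and 0.998. Spread was tested with a negative binomial Pearson statistic (edgeR trended dispersion, chi-square with 2 degrees of freedom, Benjamini-Hochberg over all genes tested) and was tested on simulated data. Known pairs and trimers were taken from textbook knowledge. Planned ratios per transcript length, their exact sign-flip test and the limiting chain of each assembly were not computed, because no transcript lengths are in the sources used here. No sequences are printed for the same reason. Of the 37 members with a row 1 is not reported here, nor are the assemblies that need it and 2 genes of the other lists. Every other member is named, and of the other lists the 4 with the highest CPM, those below 1 CPM where few, and members named for their role after their values were seen. Members, lists and assemblies were chosen with earlier results of these data known. The limit of 3 reads covers counting error alone, because amplified reads carried no molecular identifiers and are not independent.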

Additional observations from a re-analysis of the deposited data

How the results depend on the processing

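All 32 recomputed counts of members measured, pairs, trimers and members called for spread stayed within 1.5 times their reported values. With DESeq2 size factors, with total gene counts and with 10 or more counts in every library, 24 members, 13 pairs and 8 trimers were found each time. At 0.5 CPM there were 25, 13 and 8, and at 5 CPM 21, 10 and 8. Leaving out 1 replicate gave 24 to 25 members, 13 pairs and 8 trimers. The spread test called 0 members under every alternative run, with smallest edgeR or DESeq2-based adjusted p-values of 0.736 with a common dispersion to 1.00 without replicate 1, and 0 to 1 members at an unadjusted p under 0.05. Of all genes tested it called 2, against 5 with DESeq2 size factors, 6 without replicate 1 and 0 without replicate 2 or 3. Mean levels of the 24 measured genes moved by less than 1 SD under both other scalings. Without 1 replicate and with the scaling refitted, LAMC1 alone moved further, to 573 without replicate 2 (580 at unchanged scaling). At unchanged scaling, leaving out 1 of 3 values cannot move a mean by 1 SD, so small moves do not show robustness. The planned comparison with and without length correction was not run. No paired analysis was possible because the study has 1 group. Depth limits ITGA2, ITGA10, ITGB8 and LAMB3, which rest on at most 44 reads in any library.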

Other observations

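Some genes carry symbols that resemble the integrins but encode binding proteins or relatives of them. ITGB1BP1, which binds the β1 tail and restrains its activation, was at 57.7, 65.3 and 62.2 CPM (61.7 ± 3.80, n = 3). ITGB1BP2 was at 2.26, 2.02 and 1.27 CPM from 19, 10 and 9 reads, and ITGB3BP, a centromere protein also known to bind the β3 tail, at 8.31, 6.65 and 8.16 CPM. ITGBL1, a secreted relative of the β chains, was listed at 0 reads in every library.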
